A study of Mus musculus with 20 samples.

Results

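The 35 interferon-stimulated genes described here were chosen by name as genes known to be switched on by interferon, and all 35 were found among the 51123 genes of the count table. Interferons are secreted proteins that warn cells of a virus. Type I interferons bind the receptor pair Ifnar1 and Ifnar2, whose kinases Jak1 and Tyk2 activate Stat2, which joins Irf9 in a complex that binds the interferon-stimulated response element (ISRE) in gene promoters. The genes switched on in this way encode nucleic acid sensors, proteins that block viral RNA or viral entry, and the factors Irf7 and Stat2 that raise the response further, and epidermal keratinocytes and skin immune cells can both mount it.

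RNA of tdTomato-positive sorted mouse skin cells was sequenced in 20 libraries of 7 groups, 3 libraries in each group but 1. Young epidermis, from mice of 100 to 120 days, came from wild-type mice (WT young), from K14cre mice with both Wwox alleles floxed (WKO young), from K14cre mice with floxed p53 alleles (PKO young) and from K14cre mice with both genes floxed (DKO young). Old wild-type epidermis, from mice of at least 400 days, gave 2 libraries (WT old), and cutaneous squamous cell carcinomas that arose by themselves in K14cre;p53fl/fl mice (PKO cSCC) and in K14cre;Wwoxfl/fl;p53fl/fl mice (DKO cSCC) gave the others. K14cre expresses Cre recombinase from the keratin 14 promoter, so deletion is directed to keratinocytes and other cells of the skin keep the genes. The labels name no Cre for the wild-type mice and no age for the tumour-bearing mice, and they call the replicates biological without saying whether each is 1 mouse.

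Several libraries stood apart, and their values bear on the results below. Totals ran from 11930153 to 17199262 counts. WT young 1 stood apart in the genes described here. Summed levels of 8 keratinocyte markers ran from 1888 to 3189 CPM (counts scaled to library size with edgeR's TMM factors) over the WT young libraries. They reached 3656 CPM in PKO young 3 and 5406 CPM in WT old 2, and lay between 7912 and 26440 CPM in the other 15. Keratinocyte markers were thus lowest in WT young. Summed levels of 5 erythrocyte markers were 1180, 3491 and 828 CPM in WT young 1, 2 and 3 and at most 220 CPM elsewhere, and their part was not tested. The library labelled DKO young 3 kept 7.34 CPM of Wwox, against 0.926 and 0.943 CPM in DKO young 1 and 2, and 21.1 CPM of Trp53. The library labelled DKO cSCC 3 held 45.5 CPM of Trp53, and PKO young 2 and 3 held 21.8 and 19.2 CPM, against 5.90 CPM in PKO young 1. In bulk samples, fewer cells of a type and less RNA per cell cannot be told apart.

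Upstream sequence was matched by symbol in RefSeq (build GRCm38.p6), as windows from 250 bases before to 50 bases after a gene's start, for 26 of the 35 genes. The ISRE core, read here as GAAA, any 2 bases and GAAA on either strand, stood in the windows of 17 of those 26 genes, and in those of 3.99% of all 27025 gene symbols with a window. The gamma-activated site TTCNNNGAA, which reads the same on both strands, stood in the windows of 5 of the 26, and in those of 9.55% of all symbols. In Bst2 and Ifitm3 a match of one pattern overlapped a match of the other. The stretches below are those of genes that the results turn on, written 5′ to 3′ on the gene's strand with every ISRE match in capitals, where TTTC pairs are the same core read from the other strand. Ifit3 (chr19:34583353-34583436, plus strand) and Ifit3b (chr19:34607749-34607832, plus strand), which encode near-identical RNA-binding proteins, have the same letters over the stretch shown, as have Oas1a (chr5:120907526-120907565, minus strand) and Oas1g (chr5:120887614-120887651, minus strand) over the shorter stretch. Isg15 (chr4:156200855-156200916, minus strand) has 3 overlapping matches, Ifit1 (chr19:34640765-34640833, plus strand) has 2, and Rsad2 (chr12:26456543-26456592, minus strand) has 1.
Ifit3: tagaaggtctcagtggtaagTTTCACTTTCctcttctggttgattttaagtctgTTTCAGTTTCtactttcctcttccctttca
Ifit3b: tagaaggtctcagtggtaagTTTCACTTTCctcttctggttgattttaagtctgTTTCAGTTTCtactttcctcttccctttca
Ifit1: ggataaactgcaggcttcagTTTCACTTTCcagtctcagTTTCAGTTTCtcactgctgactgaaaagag
Isg15: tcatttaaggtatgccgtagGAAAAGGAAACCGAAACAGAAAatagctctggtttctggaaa
Rsad2: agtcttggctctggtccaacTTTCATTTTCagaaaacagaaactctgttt
Oas1a: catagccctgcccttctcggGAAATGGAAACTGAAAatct
Oas1g: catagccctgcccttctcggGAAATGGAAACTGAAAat
Irf7, Ifit2, Oasl1, Oasl2, Irf9, Ifi44, Ifi35, Cmpk2 and Xaf1 had no match of the ISRE core in their windows, and Mx1, Mx2, Oas2, Ifi27, Dhx58, Usp18, Zbp1, Parp14 and Rtp4 were not matched to a window.

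One wild-type library held far more interferon-stimulated RNA than any other. The 35 genes summed to 2584 CPM in WT young 1, against 362 CPM in WT young 2, 225 CPM in WT young 3 and 183 to 574 CPM across the other 19 libraries. Of the 35 genes, 29 were highest of the 20 libraries in WT young 1, where 10.7% of all 18164 genes tested had their highest level, and 24 of them exceeded the next library by at least 2-fold. The median ratio of WT young 1 to the median of the other 19 libraries was 7.28, with a range from 0.257 to 900.

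The IFIT family, whose proteins bind viral RNA that lacks the host's cap marks, held the member with the widest gap, Ifit1bl1. The ratio of WT young 1 to the next library was 17.1 for Ifit1bl1. It was 9.01 for Ifit1, below Oasl1 (15.4) and Rsad2 (12.1). Ifit3 (ENSMUSG00000074896) stood at 186 CPM in WT young 1, 12.3 CPM in WT young 2 and 2.48 CPM in WT young 3, and the median of the other 19 libraries was 1.63 CPM. Ifit2 stood at 232, 20.5 and 5.41 CPM in the same 3 libraries. Ifit1bl1 stood at 75.6, 4.42 and 0.338 CPM, with a median of 0.0840 CPM elsewhere. WT young 2 came next after WT young 1 for Ifit3, Ifit2 and Ifit1bl1, so the wild-type libraries formed a graded series and not a tight group. Reads of Ifit3 and Ifit3b, of Ifit1 and Ifit1bl1, of Oas1a and Oas1g, of Mx1 and Mx2 and of Gbp2 and Gbp3 can be shared between near-identical copies, and Trim30a has close relatives too, so the split between partners is uncertain.

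Rsad2, Cmpk2, Irf7, Isg15 and Mx1 kept that order over the 3 wild-type libraries. Rsad2 (viperin, ENSMUSG00000020641), which makes a chain-terminating nucleotide, stood at 321 CPM in WT young 1, 26.7 CPM in WT young 2 and 1.92 CPM in WT young 3. Cmpk2, its genomic neighbour and a nucleotide kinase, stood at 69.9, 5.64 and 2.09 CPM. For Cmpk2 the next highest library was WT old 2 at 6.38 CPM. Irf7, the factor that amplifies type I interferon, stood at 187, 21.8 and 8.40 CPM in WT young, and Isg15, a ubiquitin-like modifier, at 53.2, 4.35 and 0.225 CPM. Mx1, a GTPase that traps viral ribonucleoproteins, stood at 79.8, 5.30 and 1.75 CPM. In each of these the highest wild-type library lay more than 8-fold above the next wild-type library.

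Sensors, OAS enzymes and the remaining members were highest in the same library, by ratios that ranged widely. Zbp1, a sensor of Z-form nucleic acid, stood at 65.7 CPM in WT young 1 against a median of 3.57 CPM in the other 19 libraries, Ddx58 (RIG-I) at 74.3 against 15.96 CPM, Dhx58 (LGP2) at 21.4 against 2.94 CPM and Ifih1 at 68.2 against 21.4 CPM. Of the OAS family, Oasl1 stood at 45.0 against 0.584 CPM, Oas3 at 50.2 against 5.36 CPM, Oasl2 at 84.3 against 16.4 CPM and Oas2 at 16.2 against 1.39 CPM. The GTPases Mx2 (29.4 against 2.85 CPM), Gbp2 (83.5 against 12.6 CPM) and Gbp3 (49.7 against 4.18 CPM) and the factor Stat2 (77.4 against 20.3 CPM) did likewise. Among the rest, Parp14 stood at 184 against 33.2 CPM, Ifit1 at 96.1 against 3.75 CPM, Rtp4 at 21.5 against 3.30 CPM and Ifi35 at 25.0 against 13.2 CPM. Of the 29 members that peaked in WT young 1, Ifi35 had the smallest ratio to the median of the others.

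Irf9, Xaf1, Ifitm3, Ifi44, Oas1g and Ifi27 were the 6 members that did not peak in WT young 1. Ifi27 (ENSMUSG00000064215), a mitochondrial and nuclear envelope protein, had its lowest level of all 20 libraries there, at 6.65 CPM. Ifitm3, which blocks viral entry at endosomes, and Xaf1, a cofactor in cell death, peaked in tumours instead.

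**Figure D1:**
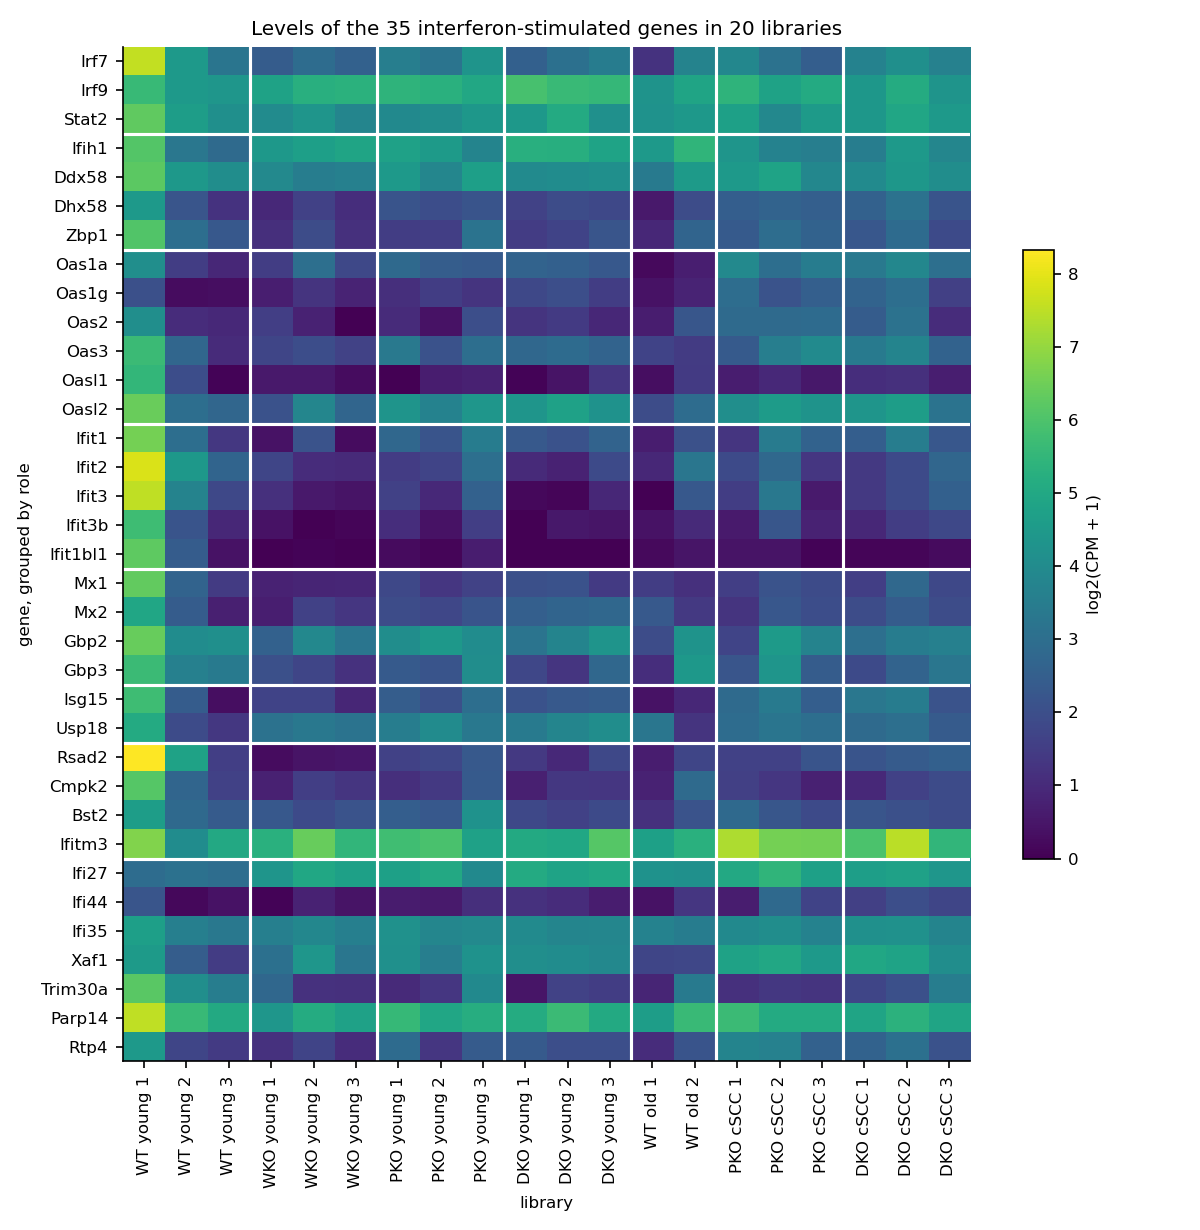
Heat map of log2(CPM + 1) for the 35 genes (rows, grouped by role, white lines between roles) in 20 libraries (columns, white lines between groups). The WT young 1 column is bright in most rows, with Rsad2 at 321 CPM and Ifit2 at 232 CPM, while Ifi27 is lowest there at 6.65 CPM.

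The sum of myeloid cell markers was also highest in WT young 1, and it was 196 CPM in WT young 2 and 232 CPM in WT young 3. The 12 macrophage, monocyte and neutrophil markers summed to 1399 CPM in WT young 1 and to 9.76 to 859 CPM elsewhere, with WT old 2 the next highest. Fcgr1, a monocyte and macrophage receptor, stood at 89.9 CPM in WT young 1 and at most 7.28 CPM in the other libraries, and Ly6c2, of inflammatory monocytes, at 65.6 CPM against at most 3.40 CPM. Ly6g, of neutrophils, was at 0 in 18 of 20 libraries. Other markers of the list peaked elsewhere. Adgre1, C1qa and C1qb, at 28.1, 20.1 and 29.5 CPM in WT young 1, were highest in WT old 2 (41.7, 77.7 and 79.7 CPM). S100a8 and S100a9, at 30.0 and 108 CPM in WT young 1, were highest in PKO cSCC 3 (83.2 and 128 CPM). WT old 2 had 453 CPM of the macrophage gene Lyz2, against 597 CPM in WT young 1, and its 35 genes summed to 356 CPM. The part of these cells in the levels of WT young 1 was not tested.

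Interferon transcripts themselves were scarce. Ifnb1 stood at 0.109 CPM in WT young 1, and of the 21 interferon genes listed only Ifng, the T and NK cell interferon, passed the low-count filter. Ifng stood at 4.90, 6.19 and 4.23 CPM in WT young and at 8.94 CPM in PKO young 3, whose T and NK cell markers were the highest of all at 4052 CPM. It did not set WT young 1 apart from WT young 2 and 3. The endosomal sensors Tlr7 and Tlr9 did: Tlr7 stood at 33.1, 3.20 and 4.73 CPM and Tlr9 at 38.1, 2.18 and 2.37 CPM. A further 56 interferon-stimulated genes outside the 35 summed to 3877 CPM in WT young 1 and to 530 to 1213 CPM in the other 19 libraries.

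**Figure D2:**
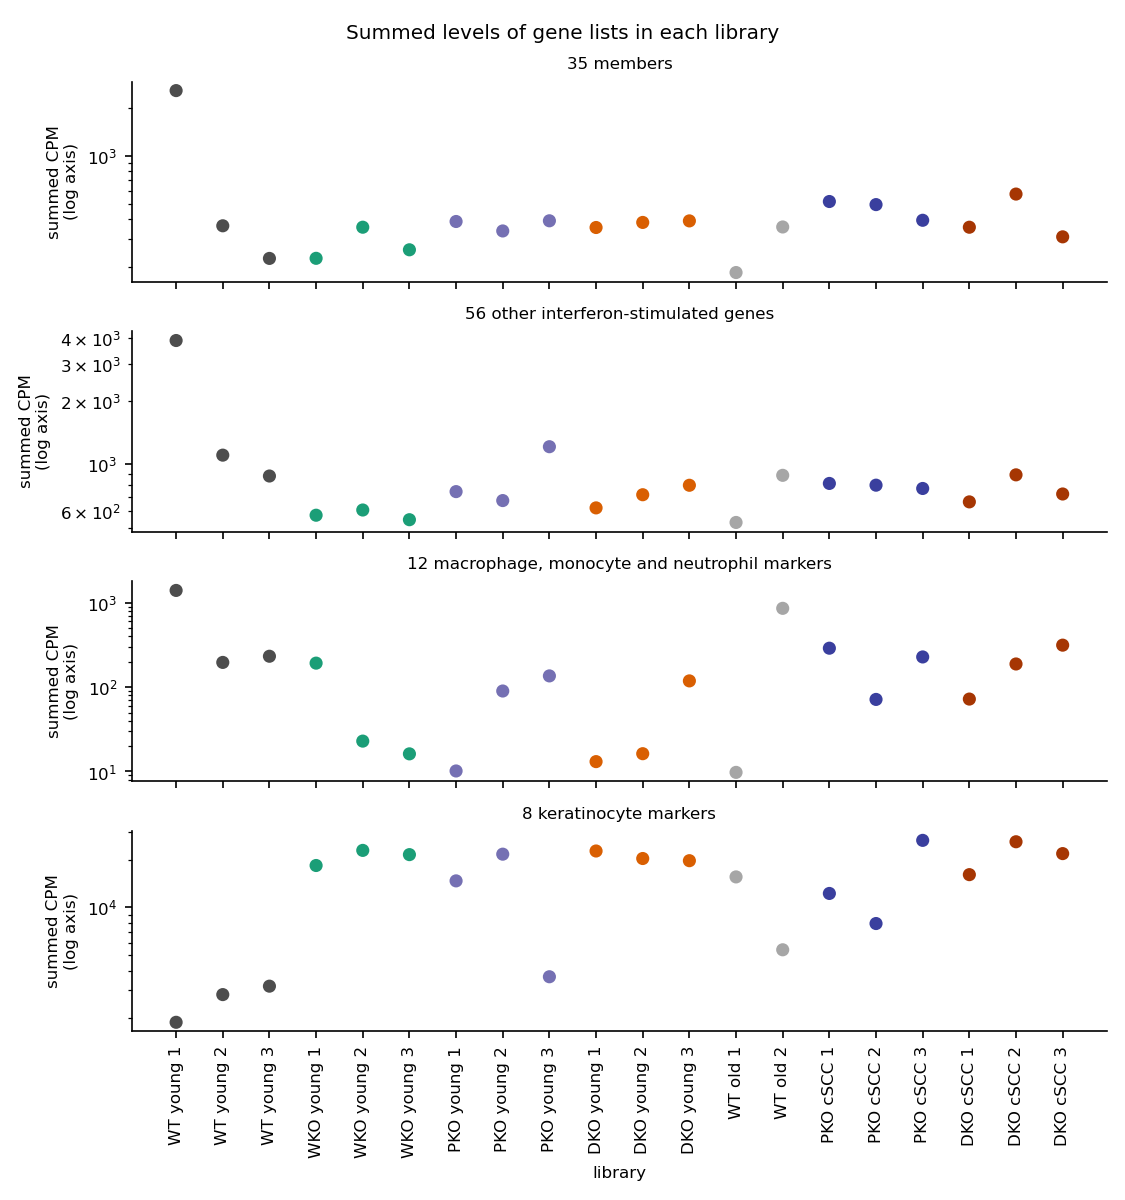
Summed CPM (log axes) of the 35 genes, of 56 other interferon-stimulated genes, of 12 myeloid markers and of 8 keratinocyte markers, 1 point per library coloured by group. WT young 1 is highest in the first 3 panels (2584, 3877 and 1399 CPM) and lowest in the last (1888 CPM).

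WKO young had less of 15 members than WT young and more of 1, by edgeR's quasi-likelihood test with adjusted p under 0.05. Of the 15 lower calls, 13 were lost without WT young 1, and leaving out a WKO young library lost calls too. The 15 lower members were Rsad2, Ifit2, Mx1, Ifit3, Ifit3b, Gbp3, Ifit1bl1, Irf7, Zbp1, Cmpk2, Ddx58, Dhx58, Ifit1, Gbp2 and Parp14, among them all 5 IFIT genes and 3 of 4 sensors, and the higher one was Ifi27. Of all 16627 genes tested, 8.34% were called lower and 13.1% higher. Members whose libraries did not overlap numbered 1 higher (26.4% of all genes) and 14 lower (25.2%). The median log2 fold change of the 35 was -2.68, beside -0.03 over all genes. Without WT young 1 the count was 2 lower (Rsad2 and Mx1, 1.56% of all genes) and 3 higher (Ifi27, Usp18 and Ifih1, 4.81%), and the median was -0.60. Leaving out a library cannot make groups overlap, so the 14 members lower without overlap had to stay so (29.8% of all genes). Without WT young 1, 8 members were higher without overlap (30.2%).

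Rsad2 stood at 0.204, 0.342 and 0.428 CPM in the 3 WKO young libraries. Every one of them lay below every WT young library, the lowest of which held 1.92 CPM. The log2 fold change was -8.47 (SE 1.68, adjusted p 0.013), and -5.40 (SE 0.97, adjusted p 0.0447) without WT young 1. Mx1 stood at 0.748, 0.821 and 0.856 CPM, again below all WT young libraries, with a log2 difference of -5.17 (SE 1.22, adjusted p 0.019), or -2.09 without WT young 1. Ifit2 (log2 fold change -5.86), Ifit3 (-6.61), Ifit3b (-7.05) and Ifit1bl1 (-9.76) did not overlap between the groups either, and none of the 4 passed without WT young 1. The others called lower ran from -1.64 to -4.73: Ddx58 (-1.64), Parp14 (-1.73), Gbp2 (-2.10), Dhx58 (-2.68), Gbp3 (-3.42), Irf7 (-3.76), Zbp1 (-3.90), Cmpk2 (-4.28) and Ifit1 (-4.73). Of these 9, Dhx58, Parp14 and Ifit1 overlapped between the groups.

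Ifi27 ran the other way and did not depend on that library. It stood at 6.65, 7.68 and 6.88 CPM in WT young and at 19.5, 29.9 and 25.5 CPM in WKO young, with no overlap. Its log2 fold change was 1.81 (SE 0.27, adjusted p 0.0126), and 1.79 without WT young 1. Keratinocyte markers moved with it: their sum, at most 3189 CPM in WT young, was at least 18360 CPM in every WKO young library. Across the other groups the order was mixed: PKO young 3 and WT old 2, with 3656 and 5406 CPM of the markers, had 14.5 and 17.3 CPM of Ifi27, but WT old 1, with 15560 CPM, had 17.9 CPM and PKO cSCC 2, with 7912 CPM, had the highest Ifi27 of all at 42.5 CPM. Their part in the difference was not tested. Usp18, the protease that removes Isg15 and damps the interferon receptor, stood at 33.0, 2.72 and 1.52 CPM in WT young and at 7.82, 9.03 and 8.06 CPM in WKO young. WKO young thus lay between WT young 1 and the other 2, and the log2 fold change went from -0.60 with WT young 1 to 1.99 without it. Ifih1 (MDA5, a sensor of long double-stranded RNA) behaved alike, from -0.19 to 1.70.

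Leaving out other libraries also changed the count of 16 members called. It was 8 without WKO young 1, 1 without WKO young 2 and 2 without WKO young 3. The shares of all genes called in these fits are not given here, so a drop particular to the members cannot be told from one over all genes. Summed T and NK cell markers were 1721 to 2309 CPM in WT young and 65.0 to 1084 CPM in WKO young, summed myeloid markers 196 to 1399 against 16.2 to 192 CPM, and their part in these differences was not tested.

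DKO young had less of 12 members than WT young and more of 1. The lower members were Ifit3, Ifit2, Rsad2, Ifit1bl1, Ifit3b, Cmpk2, Trim30a, Irf7, Gbp3, Zbp1, Mx1 and Bst2, and the higher one was again Ifi27. Of all genes, 12.1% were called lower and 15.8% higher in this comparison, which shares its wild-type libraries with the one for WKO young. At an unadjusted p under 0.05, 2 were higher (21.2%) and 17 lower (19.9%), and the libraries did not overlap for 1 higher (23.7%) and 9 lower (24.6%). The median log2 fold change of the 35 was -1.69, and 0.02 without WT young 1. Without that library 4 members were lower (Ifit1bl1, Ifit3, Ifit2 and Rsad2, 5.29% of all genes) and 6 were higher (Usp18, Ifih1, Ifi27, Irf9, Oas1g and Xaf1, 12% of all genes), and 8 of the 12 lower calls were lost.

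Ifi27 stood at 32.9, 27.2 and 30.1 CPM in DKO young, all above the WT young libraries, with a log2 difference of 2.08 (SE 0.27, adjusted p 0.00614). Ifit3 stood at 0.132, 0.0725 and 0.893 CPM, below all WT young libraries, with a log2 difference of -7.66 (SE 1.71, adjusted p 0.0121), or -4.37 (SE 1.14) without WT young 1. Ifit1bl1 had no count in any DKO young library, which made it at least 348-fold lower than the WT young mean of 26.8 CPM taking 3 counts across the whole group (0.0769 CPM) as the lowest measurable level. Against the mean of WT young 2 and 3 alone, 2.38 CPM, the bound was at least 30.9-fold lower. Ifit2 stood at 0.992, 0.725 and 2.68 CPM, with a log2 difference of -5.93 (SE 1.36, adjusted p 0.0129). Rsad2 stood at 1.59, 0.943 and 2.48 CPM and overlapped with WT young 3, at -6.16 (SE 1.46, adjusted p 0.0143). Ifit3b followed Ifit3 (-6.14, SE 1.66, adjusted p 0.0226). The others called lower were Bst2 (-2.26), Gbp3 (-2.89), Irf7 (-3.29), Zbp1 (-3.37), Mx1 (-3.44), Cmpk2 (-4.42) and Trim30a (-4.53), of which Irf7 and Mx1 overlapped with WT young. T and NK cell markers, at 1721 CPM or more in each WT young library, summed to at most 377 CPM in the DKO young libraries, and their part was not tested.

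Irf9, the DNA-binding subunit of the complex at the ISRE, stood at 59.5, 48.9 and 45.9 CPM in DKO young and at 47.9, 21.4 and 19.7 CPM in WT young. The groups overlapped only through WT young 1, without which the log2 fold change was 1.34 (SE 0.21, adjusted p 0.0184). Xaf1 stood at 16.2, 15.5 and 13.8 CPM in DKO young and at 22.1, 4.49 and 1.80 CPM in WT young, again with WT young 1 alone above. The count of 13 members called was 1 without DKO young 1, 4 without DKO young 2 and 6 without the library labelled DKO young 3. Shares of all genes called are again not given for these fits.

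**Figure D3:**
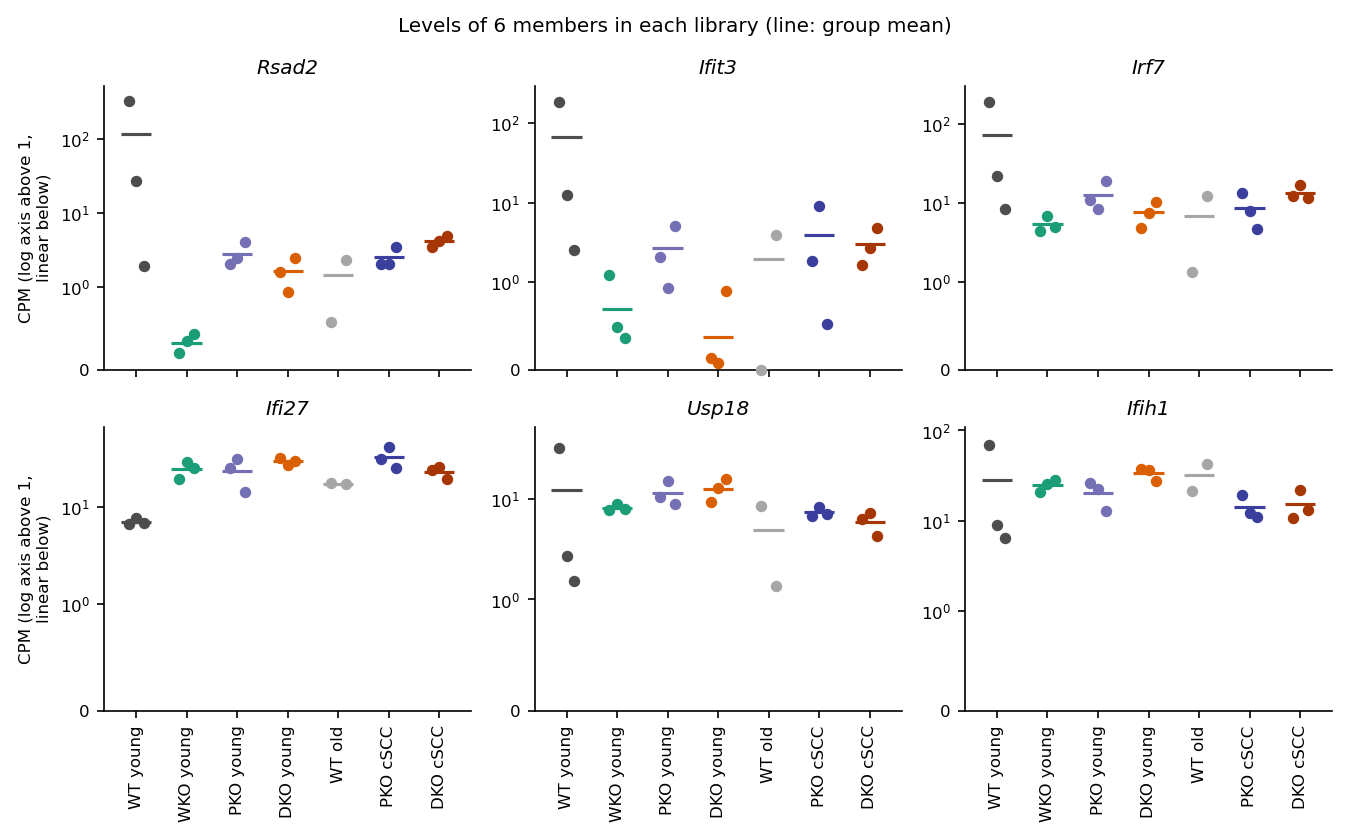
CPM of Rsad2, Ifit3, Irf7, Ifi27, Usp18 and Ifih1 in each library by group (points; log axis above 1 CPM, linear below; lines are group means). WT young spans from 1.92 to 321 CPM for Rsad2, while Ifi27 is at 6.65 to 7.68 CPM in WT young and at 14.5 CPM or more in every other library.

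No member passed in PKO young against WT young, a comparison that shares the same wild-type libraries. By edgeR, 0 of the 35 passed, beside 1 of 16627 genes in all (0.00601% higher, 0% lower). At an unadjusted p under 0.05, 1 member was higher (15.4% of all genes) and 13 were lower (9.74%), and DESeq2 called 1 higher and 10 lower (8.14% and 4.38% of all genes). Ifi27 stood at 25.9, 31.8 and 14.5 CPM, above all WT young libraries (log2 fold change 1.76, SE 0.27, adjusted p 0.0539), and was the only member without overlap (13.5% of all genes). Rsad2 (log2 fold change -5.36), Ifit2 (-4.50) and Mx1 (-3.81) came next by p, and all 3 overlapped with WT young. The median log2 fold change was -1.42 with WT young 1 and 0.47 without it.

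PKO young 3 differed from its group in some members. Bst2 (tetherin, also high in plasmacytoid dendritic cells) stood at 4.61, 3.95 and 18.1 CPM in PKO young 1, 2 and 3, Gbp3 at 4.18, 3.53 and 15.8 CPM, Trim30a at 0.983, 1.51 and 14.6 CPM and Zbp1 at 1.84, 1.93 and 8.03 CPM. The same library had 4052 CPM of T and NK cell markers, against 839 and 318 CPM in PKO young 1 and 2, and their part was not tested. Siglech, which marks plasmacytoid dendritic cells, was at 1.63 CPM there, 0.123 CPM in PKO young 1 and 0 in PKO young 2. Its highest level of all was in WT young 1, at 3.16 CPM. The sum of the 7 listed markers of these cells went the other way. It was 106 CPM in PKO young 3 against 202 and 370 CPM in PKO young 1 and 2. Ly6d alone among them was lower there, at 42.4 against 165 and 324 CPM. Each of the others was highest of the 3 libraries in PKO young 3, with Ccr9 at 1.91 against 0.184 and 0.504 CPM. Tcf4 barely differed from PKO young 2 (41.5 against 41.3 CPM). Without PKO young 3, 3 members passed (share of all genes not given).

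A test of whether the difference made by Wwox deletion depended on p53 status, DKO young minus PKO young against WKO young minus WT young, called 0 of the 35 and 0 of 16627 genes by edgeR, with 10 members and 20.3% of all genes at an unadjusted p under 0.05.

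**Figure D4:**
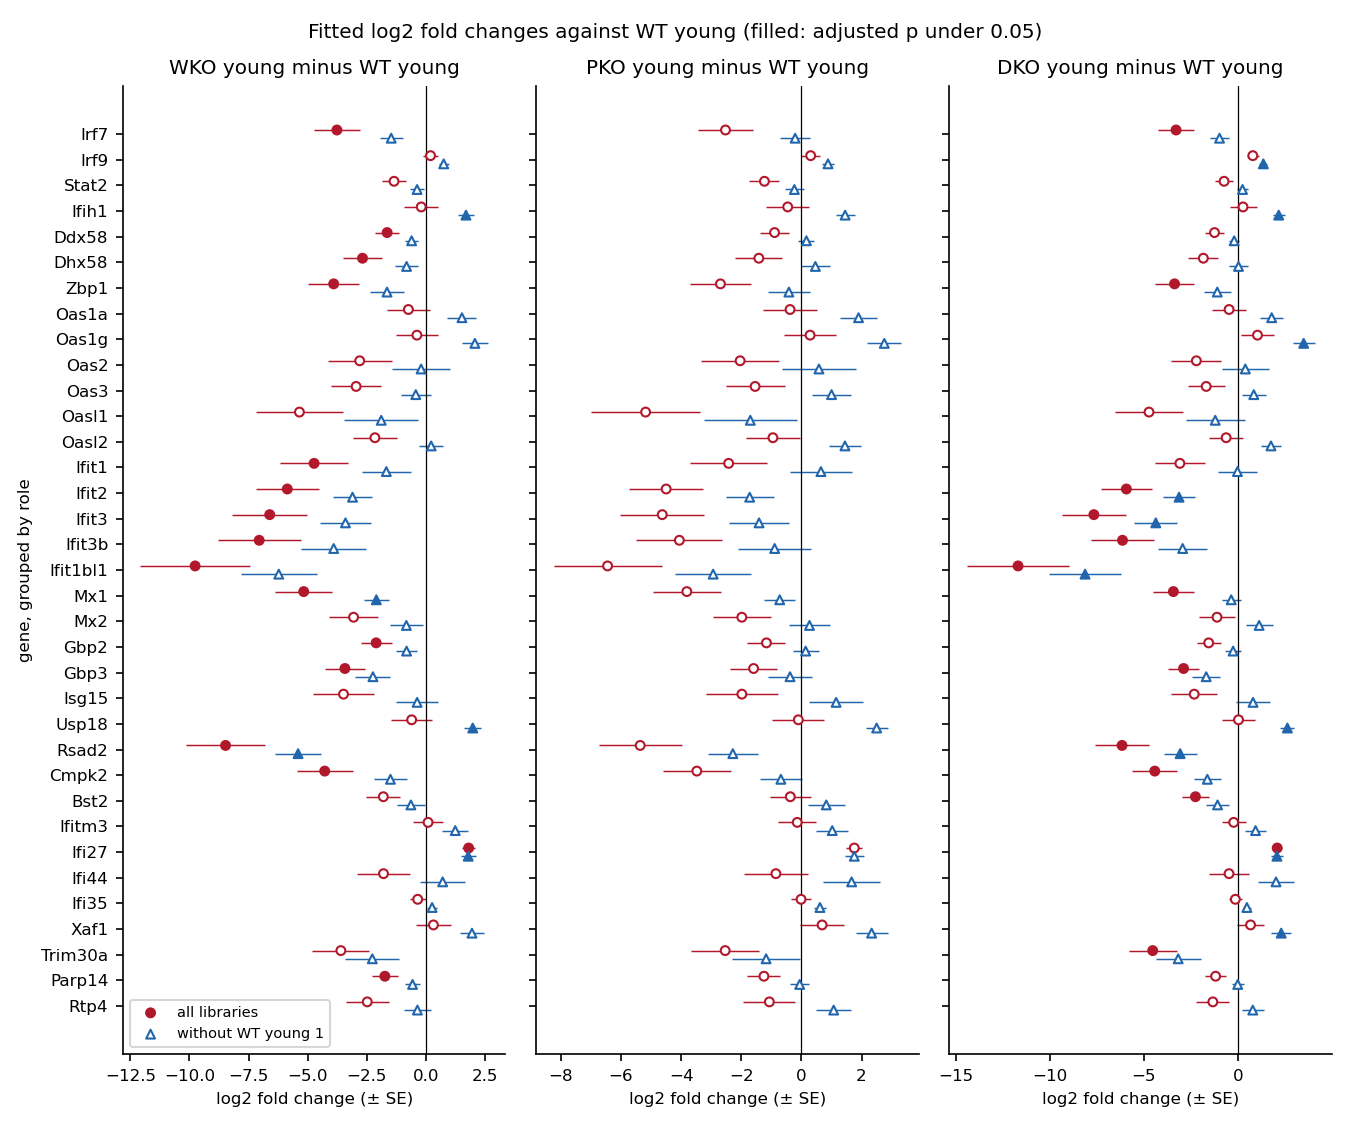
Fitted log2 fold change (± SE) of each of the 35 genes in WKO, PKO and DKO young epidermis minus WT young, with all libraries (circles) and without WT young 1 (triangles); filled symbols passed an adjusted p of 0.05. Most genes move to the right without WT young 1, Usp18 in WKO young from -0.60 to 1.99, while Ifi27 stays in place at 1.81 and 1.79.

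Old wild-type epidermis differed from young in 1 member, Ifi27, which was higher (1.73% of all 17622 genes were called higher and 0.261% lower). Ifi27 stood at 17.9 and 17.3 CPM in WT old, above the 3 WT young libraries, with a log2 difference of 1.33 (SE 0.28, adjusted p 0.0398). It did not pass when any 1 library of either group was left out. At an unadjusted p under 0.05, 1 member was higher (13.8%) and 16 were lower (9.09%), and DESeq2 called 1 higher and 13 lower (8.09% and 4.18% of all genes). Without WT young 1, 2 were lower at that unadjusted p (7.31%), and the median log2 fold change of the 35 went from -2.32 to -0.40. Rsad2 stood at 0.574 and 2.35 CPM in WT old (log2 fold change -6.31, SE 1.74, adjusted p 0.0728), Oas1a at 0.164 and 0.607 CPM (-4.02) and Mx1 at 1.89 and 1.21 CPM (-4.22). Without WT young 1 these became -3.25 for Rsad2, -1.77 for Oas1a and -1.17 for Mx1. Oas1a was below all WT young libraries and the other two overlapped with WT young. The 2 old libraries differed from each other: their 35 genes summed to 183 and 356 CPM, and their myeloid markers to 9.76 and 859 CPM.

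Every tumour library held more Oas1a, Oas1g, Isg15 and Xaf1 than both old wild-type libraries, but no member passed the test. By edgeR, 0 of 34 members tested passed in PKO cSCC (0.00605% of 16526 genes were called in each direction) and 0 in DKO cSCC (0% in each direction). Ifit1bl1 did not pass the low-count filter here. At an unadjusted p under 0.05, 9 members were higher and 1 was lower in PKO cSCC (14.6% and 13.1% of all genes) and 8 were higher and 1 was lower in DKO cSCC (8.28% and 6.25%), and DESeq2 called 8 and 5 members higher (6.57% and 2.73% of all genes) and none lower (8.53% and 1.96%). The libraries did not overlap for 13 higher members in PKO cSCC (22.3% of all genes) and 14 in DKO cSCC (18%). In PKO cSCC 1 member, Ifih1, was lower without overlap (22.9% of all genes), and in DKO cSCC none was (16.9%). The median log2 fold change was 0.87 and 0.60, beside 0.06 and 0.02 over all genes, and the comparisons share the 2 WT old libraries. Myeloid markers summed to 71.5 to 314 CPM in the tumours and to 9.76 and 859 CPM in WT old, so the tumour sums lay between the old libraries. S100a8 and S100a9 made up much of some tumour sums, at 83.2 and 128 CPM of 228 CPM in PKO cSCC 3. Single markers did not all lie between. In PKO cSCC 3, Adgre1 was below WT old 1 (0.346 against 0.902 CPM) and C1qa above it (2.77 against 0.492 CPM).

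Xaf1 (ENSMUSG00000040483) stood at 2.38 and 2.43 CPM in WT old, at 27.0, 30.8 and 21.8 CPM in PKO cSCC and at 30.0, 27.5 and 15.9 CPM in DKO cSCC. All 6 tumours lay above both old libraries, with log2 fold changes of 3.54 (SE 0.41, adjusted p 0.05, just over the threshold before rounding) and 3.37 (SE 0.41, adjusted p 0.163). Oas1a, of the OAS enzymes that sense double-stranded RNA, stood at 0.164 and 0.607 CPM in WT old, at 14.2, 7.01 and 10.2 CPM in PKO cSCC and at 9.40, 13.5 and 7.22 CPM in DKO cSCC. Its log2 fold changes were 4.80 (SE 0.70) and 4.69 (SE 0.70). Isg15 stood at 0.328 and 0.911 CPM in WT old and at 3.39 to 10.4 CPM in the 6 tumours, and Oas1g at 0.328 and 0.759 CPM and at 1.96 to 7.03 CPM. The lowest tumour library was DKO cSCC 3 by label for Isg15, Oas1g and Xaf1. With all 20 libraries in the fit, Xaf1, Oas1a, Ifi27 and Oas1g passed in PKO cSCC (10.5% of all genes higher) and Xaf1 and Oas1a in DKO cSCC (2.48%). In PKO cSCC, 2 members passed without PKO cSCC 2 (share of all genes not given).

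**Figure D5:**
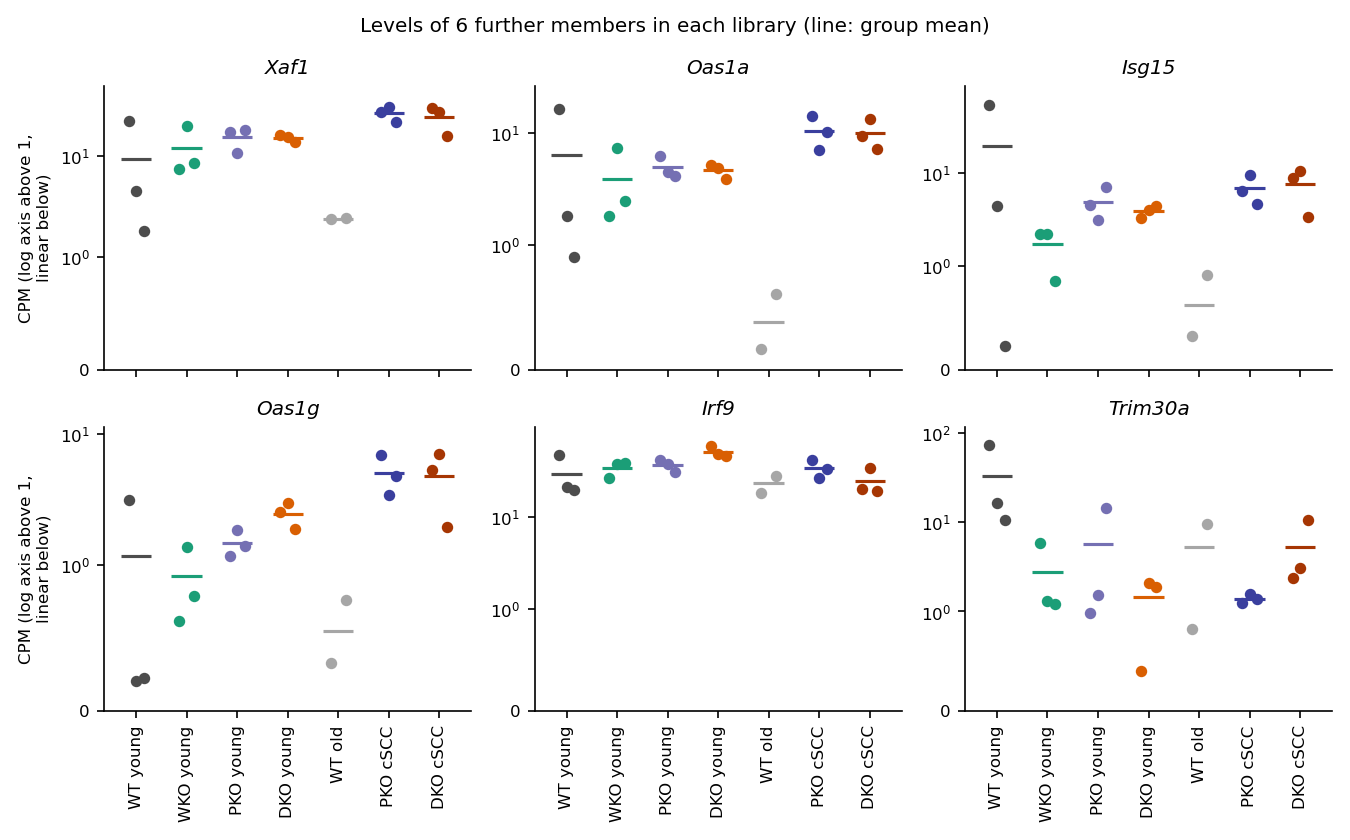
CPM of Xaf1, Oas1a, Isg15, Oas1g, Irf9 and Trim30a in each library by group (points; log axis above 1 CPM, linear below; lines are group means). Xaf1 is at 2.38 and 2.43 CPM in WT old and at 15.9 to 30.8 CPM in the 6 tumours.

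No member passed between DKO cSCC and PKO cSCC. By edgeR, 0 of 34 members passed (0.00605% of all genes were called higher and 0% lower), 0 reached an unadjusted p under 0.05 (4.88% and 3.22%), and DESeq2 called 0 (1.26% and 0.164%). Ifi27 stood at 31.8, 42.5 and 25.9 CPM in PKO cSCC and at 24.2, 26.2 and 19.8 CPM in DKO cSCC (log2 fold change -0.57, SE 0.27), and these overlapped by 1 library pair. Trim30a, a regulator of inflammatory signalling, was the only member without overlap, at 1.24, 1.57 and 1.38 CPM in PKO cSCC and 2.37, 3.09 and 10.5 CPM in DKO cSCC (1.85, SE 0.92; 7.47% of all genes were higher without overlap and 5.94% lower). Its log2 fold change was 0.92 without the library labelled DKO cSCC 3, which also had the most Langerhans and dendritic cell markers (2568 CPM) and endothelial markers (417 CPM) of the tumours, and their part was not tested. Irf9 (-0.52, SE 0.32) and Rtp4, a chaperone of membrane receptors (-0.93, SE 0.58), came next by p. The SE over the 34 members reached 1.40 on the log2 scale, for Ifit3, so sizeable differences would not have been detectable for such genes.

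Against young epidermis of the same genotype, 0 of the 35 passed in either tumour group by edgeR. T and NK cell markers did not overlap either: they summed to 25.7 to 65.6 CPM over the PKO cSCC libraries, below the 318 to 4052 CPM of PKO young. No DKO cSCC library exceeded 115 CPM, below the lowest DKO young library at 118 CPM. Their part in the values below was not tested. In PKO cSCC against PKO young, 1 member was higher at an unadjusted p under 0.05 (13.8% of all genes), DESeq2 called 0 (8.06% and 9.87% of all genes), and edgeR called 5.33% and 6.16% of all 18164 genes higher and lower. Oas1g stood at 6.94, 3.42 and 4.78 CPM against 1.17, 1.85 and 1.39 CPM, without overlap (log2 fold change 1.78, SE 0.80, adjusted p 0.157). Ifitm3 stood at 159, 96.4 and 92.3 CPM against 53.9, 59.8 and 26.5 CPM, also without overlap (1.31, SE 0.64). Ifi27 (0.48, SE 0.25) and Ifi44 (1.97, SE 1.05) overlapped. Dhx58, Oas2, Xaf1 and Oas1a were also higher without overlap, making 6 members (12.9% of all genes), and Usp18 alone was lower without overlap (12.3%).

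In DKO cSCC against DKO young, 1 member was lower at an unadjusted p under 0.05 (12.2% of all genes), and 3.27% and 4.03% of all genes were called higher and lower. That member was Irf9, at 20.2, 34.2 and 19.1 CPM in the tumours against 59.5, 48.9 and 45.9 CPM in young epidermis, without overlap (log2 fold change -1.07, SE 0.33, adjusted p 0.0592). DESeq2 called it lower (adjusted p 0.0229; 8.01% of all genes were called lower). Ifit3 stood at 1.63, 2.63 and 4.82 CPM against 0.132, 0.0725 and 0.893 CPM (3.14, SE 1.64), and Ifit3b followed it (2.66, SE 1.41). Ifih1 stood at 10.6, 22.0 and 13.0 CPM against 37.6, 36.1 and 27.6 CPM (-1.15, SE 0.65). Without overlap, 10 members were higher (14.2%) and 5 were lower (16%), the latter Irf9, Mx2, Ifih1, Usp18 and Ifi27. The median log2 fold change was 0.68, or 0.66 with Ifit1bl1, at 0 in DKO young, set at its bound. A test of whether the step from young epidermis to tumour differed between the genotypes called 0 of the 35 and 0 of 18164 genes by edgeR, with 2 members and 12.6% of all genes at an unadjusted p under 0.05.

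Per kilobase of exon, Ifitm3 was the most abundant member in all 7 groups, from 47.1 CPM per kb in WT old to 171 CPM per kb in PKO cSCC. Ifi27 came next in every group but WT young, lowest in WT old and highest in PKO cSCC at 22.8 CPM per kb. In WT young the next were Ifit3 (38.3 CPM per kb), Rsad2 (26.9) and Isg15 (25.5), means that WT young 1 carried, and Ifi27 stood at 4.82 CPM per kb. Ifitm3 varied within groups, with an SD of 71.4 around a mean of 94.0 CPM in DKO cSCC, so its order between the tumour groups is within their spread.

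Genes of the pathway around the 35 were also compared. In WKO young against WT young, 5 of 9 receptor and kinase genes were called lower, with Ifnar1 at 23.1, 21.0 and 21.0 CPM against 70.8, 38.2 and 35.6 CPM (log2 fold change -1.16), Ifnar2 (-1.47) and Jak2 (-0.95). Ifnar1 also passed without WT young 1 (-0.75). Among genes of nucleic acid sensing, Tlr7 was lower (-6.01). Of 55 other interferon-stimulated genes tested, 23 were lower, led by Helz2 (-2.62), Sp100 (-3.40) and Gbp5 (-4.79), and Oas1c, named here after its values were seen, was higher. Without WT young 1, Helz2 and Sp100 were still lower and Oas1c still higher, and no other gene of that list passed. In DKO young the same lists gave 4 receptor genes lower, led by Il10rb (-2.55) and Ifnar2 (-1.44), 1 higher, and 22 other interferon-stimulated genes lower. Without WT young 1, 3 receptor genes and 3 of the 55 were lower in DKO young, and 4 of the 55 were higher. In PKO young and WT old, and in both tumour groups against WT old, no gene of these lists passed. In PKO cSCC against PKO young, Jak1 (-1.11) and Ifngr1 (-1.07), which serve interferon receptors, were lower, and in DKO cSCC against DKO young both were lower as well (-1.02 and -1.31).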

How the data were processed

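The single table the authors deposited holds estimated counts, already whole numbers, for 51123 Ensembl genes in 20 libraries made from 5 ng of RNA each. For the deposited estimated counts, build mm39 and the tools Salmon 0.13.1, Trim Galore 0.4.1, DESeq2 1.28.1 and FastQC 0.11.5 are listed per the submitters' processing notes, without the role of each; the sources used here do not give how transcripts were summed to genes. All 37 of the largest values, those with 7 or more digits, were multiples of 10. Symbols and exon lengths came from GENCODE M21 (GRCm38), and 48246 identifiers had a symbol.

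Tests used edgeR 4.0.16 under R 4.3.3 (TMM scaling, filterByExpr, quasi-likelihood), with Benjamini-Hochberg adjustment over all genes tested and a threshold of 0.05. Fits held the 12 young libraries, those plus WT old, the tumours plus WT old, or all 20. Totals of 11930153 to 17199262 counts set the precision, and a floor of 3 counts covers counting error only. P-values measure only the spread between these samples, which may be partly technical. The tests were tried on simulated data. Alternatives were DESeq2 1.42.0, RLE scaling, no low-count filter, other libraries in the fit, a replicate block, each library left out and, chosen after seeing the data, 2 libraries left out together.

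Members past the threshold were named, with full statistics for the 6 smallest p; where fewer than 4 passed, the 4 smallest were named. Of each pathway list at most 3 were named by p. Members, lists and motifs were chosen with earlier results of these data known.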

Additional observations from a re-analysis of the deposited data

How the results depend on the processing

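Counts of members called moved most with the tool, the filter and the libraries. Leaving out 1 library at a time gave 1 to 22 members called in WKO young (16 with all), 1 to 18 in DKO young (13 with all), 0 to 3 in PKO young (0 with all), 0 to 0 in WT old against WT young (1 with all) and 0 to 2 in PKO cSCC against WT old (0 with all). With the replicate number as a block (replicate block), 6 members were called in WKO young, 6 in DKO young and 0 in WT old. The labels do not say that equal numbers pair samples. Deviations of same-numbered libraries correlated with a median r of -0.04 over 57 pairs, and those of different-numbered libraries with 0.03 over 114 pairs. Same-numbered pairs ranged from -0.5 to 0.412. With so few libraries per group, this check cannot decide whether some of them share more than a number. Without a low-count filter the counts were 6 in PKO young, 8 in WT old against WT young, 7 in PKO cSCC and 3 in DKO cSCC against WT old. DESeq2 called 11 in PKO young, 14 in WT old, 8 in PKO cSCC and 5 in DKO cSCC against WT old, and 1 in DKO cSCC against DKO young. With all 20 libraries in the fit, 1 was called in PKO young, 4 in PKO cSCC and 2 in DKO cSCC against WT old. Without PKO young 2 and 3 together, 1 was called in PKO young. The cause of these moves was not tested, beyond fewer samples in the fits with libraries left out. Shares of all genes called are not given for libraries left out other than WT young 1, the replicate block or no filter. For these, a move in the members cannot be told from one over all genes. Single genes were followed only for the 4 or 6 members of smallest p in each comparison, which are the least likely to reverse. Of their 440 values under these alternatives, 370 kept direction and side of the threshold, 41 passed it newly, 29 no longer passed and 0 reversed. Over all 35 members direction held less. Without WT young 1, members with a positive log2 fold change went from 4 to 11 in WKO young and from 4 to 21 in PKO young. They went from 6 to 18 in DKO young and from 2 to 12 in WT old, each against WT young. RLE scaling changed no count.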

Other observations

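Irf1, Socs3 and Stat3, of the pathway outside the 35 genes, were higher in DKO young than in WT young epidermis. Irf1, a factor induced by interferon gamma and by stress, stood at 508, 460 and 201 CPM in DKO young, against 87.1, 40.4 and 29.9 CPM in WT young, with no overlap (log2 fold change 2.88, SE 0.55, adjusted p 0.00784 by edgeR; 3.49 without WT young 1). Socs3, which blocks cytokine receptors that use Stat3, stood at 738, 640 and 383 CPM against 141, 49.8 and 34.8 CPM (2.95, SE 0.50), and Stat3 itself at 287, 306 and 223 CPM against 147, 82.4 and 94.3 CPM (1.32, SE 0.26). In all 3 genes the lowest DKO young library was the one labelled DKO young 3. Socs3 was also called higher in WKO young than in WT young, at 276, 308 and 244 CPM. It stood at 339, 293 and 184 CPM in PKO young. Stat3 reached 268, 211 and 232 CPM in PKO cSCC and 229 CPM in WT old 2, so its levels were not particular to DKO young. Keratinocyte markers were higher in DKO young than in WT young too (19690 to 22660 against 1888 to 3189 CPM), and their part was not tested. In DKO cSCC, Irf1 stood at 54.0, 61.8 and 19.4 CPM, lower than in DKO young (-3.11, SE 0.53, adjusted p 0.00535), as was Socs3 (-2.70). In PKO cSCC, Irf1 stood at 31.3, 30.5 and 30.2 CPM against 96.6, 145 and 75.8 CPM in PKO young (-1.79, SE 0.51, adjusted p 0.0334).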
